A study of Mus musculus with 6 samples.

Results

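Hox genes encode homeodomain transcription factors that give cells a record of their position along the body. In mammals they lie in clusters named Hoxa to Hoxd, and each gene carries a paralog number. Genes with low numbers are used toward the head, and genes with high numbers toward the tail and in the outgrowing limb. Many adult and postnatal tissues, connective tissue among them, keep part of this pattern. All gene symbols made of Hox, a cluster letter and a number were taken, which gave 39 genes of the 24421 in the files: 11 in Hoxa, 10 in Hoxb, 9 in Hoxc and 9 in Hoxd. The symbols were chosen by name alone.

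RNA came from mouse sciatic nerve, the large nerve of the hind limb, in 3 libraries labelled YAP/TAZ-DBL-cKO (called cKO here) and 3 labelled YAP/TAZ-WT (WT); the series text speaks of mice, and whether a library is 1 mouse is not stated. YAP and TAZ, encoded by Yap1 and Wwtr1, are co-activators of TEAD transcription factors, and the series asks about their part in myelination by Schwann cells, the glia of the nerve. Neither the promoter that drives the deletion, the deleted exons, the age and strain of the mice nor any pooling of nerves is given in the sources used here. The nerve is a mixed tissue, so fewer cells of a type and less RNA per cell cannot be told apart in any value below.

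Libraries held 24651262 to 47044158 gene counts, and each WT library was deeper than each cKO library. In the targeted genes, Yap1 lay at 102.6 to 108.8 CPM (gene counts as a rate of the scaled library size) in cKO and 120.4 to 123.7 CPM in WT, without a call (edgeR adjusted p = 0.145). Wwtr1 lay at 337.4 to 372.0 CPM in cKO and 253.8 to 284.2 CPM in WT and was called higher (edgeR adjusted p = 0.0208). That call was lost without cKO 3, WT 1 or WT 2, and with the replicate number or the skeletal muscle level added to the fit (range over all alternatives 0.000287 to 0.413). Counts over whole genes cannot show the loss of a single exon, so the labels are taken as given. Both Xist and the Y-linked Ddx3y had counts in all 6 libraries (lowest 133.9 and 8.93 CPM), and the sources used here give neither the sex of the mice nor pooling. WT 3 stood apart from its group, since its counts differed from those of WT 1 and WT 2 by a chi-square of 62.4 and 63.9 per degree of freedom and those 2 differed from each other by 16.7. Within cKO, cKO 1 differed from cKO 2 and cKO 3 by 45.3 and 25.5 per degree of freedom, and those 2 from each other by 12.9. Markers of Schwann cells were present at 43283 to 63913 CPM in WT and 12904 to 20474 CPM in cKO, summed over 8 genes. Of the 8, 2 were called lower, against 6.17% of all tested genes.

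Of the 39 Hox genes, 29 had enough counts to be tested (filterByExpr with a minimum count of 10) and 10 did not. Hoxa13, Hoxb1, Hoxb13, Hoxc12 and Hoxd12 had 0 counts in all 6 libraries. With 3 counts taken as the limit, a count of 0 allows 0.0649 CPM in the deepest library and 0.117 CPM in the shallowest, counting error only. The other untested genes had few counts: at most 6 in a library for Hoxa6, 8 for Hoxc13, 13 for Hoxd11, 2 for Hoxd13 and 1 for Hoxd1. Together the 39 genes gave 151.1 to 159.7 CPM in each of the 6 libraries, from 4100 to 6982 counts.

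The tested Hox genes of the nerve ran up to paralog group 11, and none of group 12 or 13 passed the filter. Levels are compared between genes as CPM per kb of annotated exon. In Hoxa (mm10 chromosome 6, 52155590 to 52260880, minus strand) the tested genes ran up to Hoxa11, and Hoxa13, a gene of the hand and foot plate, was at 0. In Hoxb (chromosome 11, 96194316 to 96368256, plus strand) they ran from Hoxb2 to Hoxb9, with Hoxb1, a gene of the hindbrain, and Hoxb13, a gene of the tail end, both at 0. In Hoxc (chromosome 15, 102921103 to 103036852, plus strand) they ran from Hoxc4 to Hoxc11. In Hoxd (chromosome 2, 74668310 to 74765142, plus strand) they ran from Hoxd3 to Hoxd10, and the limb genes Hoxd11 to Hoxd13 stayed under the filter.

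**Figure D1:**
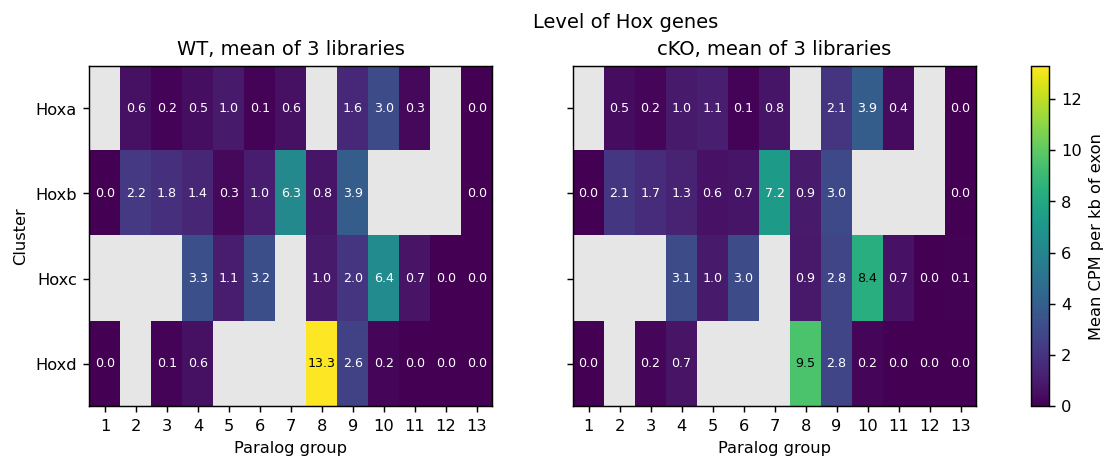
Mean CPM per kb of exon of Hox genes by cluster (rows) and paralog group (columns), over 3 WT libraries (left) and 3 cKO libraries (right); grey cells hold no value. Hoxd8 is the brightest cell in both groups, at 13.3 in WT and 9.52 in cKO, and columns 12 and 13 are dark.

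Hoxd8 led all Hox genes in the WT nerve, at 10.8, 14 and 15.2 CPM per kb in WT 1, 2 and 3. It alone made up 18.3% to 25.4% of the summed Hox level of a WT library. Hoxc10, a gene of the lumbar trunk and hind limb, followed at 6.14, 5.78 and 7.37 CPM per kb. Hoxb7 came next at 6.70, 7.04 and 5.06 CPM per kb, and these ranges overlap with those of Hoxc10, so the order of this pair is not fixed by 3 libraries. The 3 genes together held 40.1% to 46.1% of the WT sum, and the top 10 genes held 75.6% to 77.4%.

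The upstream DNA of Hoxd8 is shown beside that of Hoxd12, because both sit in the Hoxd cluster while one had the highest level of all Hox genes and the other no count. Each is the 250 bases before the RefSeq start (GRCm38.p6, plus strand), at chr2:74704365-74704614 for Hoxd8 and chr2:74674763-74675012 for Hoxd12, with CpG dinucleotides in capitals.
Hoxd8: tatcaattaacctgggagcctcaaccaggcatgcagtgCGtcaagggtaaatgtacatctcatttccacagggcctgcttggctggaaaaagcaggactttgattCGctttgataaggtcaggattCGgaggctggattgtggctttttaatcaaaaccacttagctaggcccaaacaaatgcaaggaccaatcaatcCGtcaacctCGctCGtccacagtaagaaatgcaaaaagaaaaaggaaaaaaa
Hoxd12: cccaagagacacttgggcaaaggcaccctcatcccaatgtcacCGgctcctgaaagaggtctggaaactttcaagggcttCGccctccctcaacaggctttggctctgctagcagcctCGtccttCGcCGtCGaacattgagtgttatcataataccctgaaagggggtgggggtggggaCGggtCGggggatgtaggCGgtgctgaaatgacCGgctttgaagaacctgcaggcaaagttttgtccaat
Hoxd8 has 6 CpGs and 44.4% G and C in this stretch, and Hoxd12 has 10 and 55.6%. Of all 32851 RefSeq promoter windows of this length, 50.4% had at least 6 CpGs. RefSeq windows were found for 22 of the 39 Hox genes (24 windows), with a median of 12.5 CpGs against 6 for all windows. The TEAD motif GGAATG, searched on both strands, was in neither printed stretch, in 1 of the 24 Hox windows (that of Hoxa9) and in 12.6% of all windows. The letters TGATNNAT, a site that Hox and Pbx proteins can share, were in neither stretch either, in 4 of the 24 Hox windows and in 7.68% of all windows. Such matches describe letters only.

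Within Hoxa, the 2 highest levels in WT were those of Hoxa10 and Hoxa9, late in the cluster. Hoxa10 was highest at 2.98, 2.15 and 3.97 CPM per kb, then Hoxa9 at 1.35, 1.52 and 1.78 and Hoxa5 at 0.945, 1.03 and 0.913. The anterior gene Hoxa3 was at 0.152 ± 0.0879 CPM per kb (SD, n = 3). Hoxa11, a gene of the limb's middle segment, was at 0.303 ± 0.167 CPM per kb, far under Hoxa10. Hoxa6 lay between expressed neighbours and had 0 to 6 counts.

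Within Hoxb, Hoxb7 and Hoxb9 stood out. Hoxb9, the last of the Hoxb genes with counts, was at 4.42, 4.88 and 2.40 CPM per kb, with WT 3 the lowest. Hoxb2, known from the hindbrain, was at 2.48, 2.29 and 1.84 CPM per kb, the highest of groups 1 to 3 per kb of all annotated exon. Over the exon bases of no other gene, Hoxb3 would lie above it. Between them Hoxb5 was low at 0.310 ± 0.129 CPM per kb and Hoxb8 at 0.767 ± 0.169 (SD, n = 3). Only 47.1% of the exon bases of Hoxb3 and 72.7% of those of Hoxb2 belong to no other gene, and reads in shared bases may have been set aside, since the counting mode is not given in the sources used here.

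Within Hoxc, Hoxc10 led, followed by the anterior genes Hoxc4 at 3.22, 3.57 and 2.99 CPM per kb and Hoxc6 at 3.43, 3.57 and 2.61, whose ranges overlap. Hoxc9, a gene of the thoracic spinal cord, was at 1.98 ± 0.205 CPM per kb, while Hoxc5 (1.09 ± 0.0841), Hoxc8 (0.958 ± 0.126) and Hoxc11 (0.718 ± 0.110) were lower (SD, n = 3). Within Hoxd, the level fell sharply on either side of Hoxd8: Hoxd9 was at 2.12, 2.54 and 3.10 CPM per kb and Hoxd4 at 0.712, 0.551 and 0.470. Hoxd10, the paralog of Hoxc10 and Hoxa10 and a gene of the lumbar cord, was at only 0.0834, 0.179 and 0.375 CPM per kb. For Hoxd3 and Hoxd4, 37.2% and 47.7% of exon bases belong to no other gene.

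By paralog number, the WT sum peaked in group 8 at 15 ± 2.29 CPM per kb, most of it Hoxd8, with group 10 at 9.67 ± 1.85 (SD, n = 3) and group 9 at 9.10 to 10.9. Group 11 fell to 1.06 ± 0.251, and group 12 was at 0. Groups 4 to 8 held 57.0% of the WT Hox sum, groups 9 to 13 held 34.6% and groups 1 to 3 held 8.45%. By cluster, the means of Hoxb (17.7 ± 3.33 CPM per kb), Hoxc (17.7 ± 0.118) and Hoxd (16.9 ± 2.70) differed by less than the spread of Hoxb or of Hoxd (SD, n = 3). The spread of Hoxc was smaller than its difference from Hoxd. Hoxa was lower in each WT library, at 7.95 ± 1.29.

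The WT libraries differed from one another by cluster. WT 3 was the lowest of the 3 in 7 of 8 tested Hoxb genes, and WT 2 was the lowest in 7 of 9 tested Hoxa genes. The Hoxb sum was 19.1, 20.1 and 13.9 CPM per kb in WT 1, 2 and 3, and the Hoxa sum 8.18, 6.57 and 9.11. WT 3 had the highest WT sums of fibroblast markers (30306 CPM, against 22452 CPM in WT 2) and adipocyte markers (135.8 CPM, against 9.95 CPM in WT 1). WT 2 had the lowest sum of skeletal muscle markers (520.2 CPM, against 1983 CPM in WT 1). The cKO libraries differed by cluster too: cKO 3 was the lowest of the 3 in 6 of 7 tested Hoxc genes, cKO 1 the lowest in 6 of 9 Hoxa genes and cKO 2 the highest in 6 of 8 Hoxb genes. What part these tissues have in the differences between libraries was not tested.

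The cKO nerve had a Hox total that overlapped that of WT, and Hox genes of the same groups were detected. The summed Hox level was 61.2 ± 0.916 CPM per kb in cKO and 60.2 ± 1.57 CPM per kb in WT (SD, n = 3). The WT libraries gave 58.9, 61.9 and 59.8 CPM per kb and the cKO libraries 61.2, 62.1 and 60.3, so the groups overlap. The 5 genes at 0 in WT were also at 0 in cKO, and Hoxd8, Hoxc10 and Hoxb7 were again the top 3, with 39.6% to 42.1% of the sum.

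**Figure D2:**
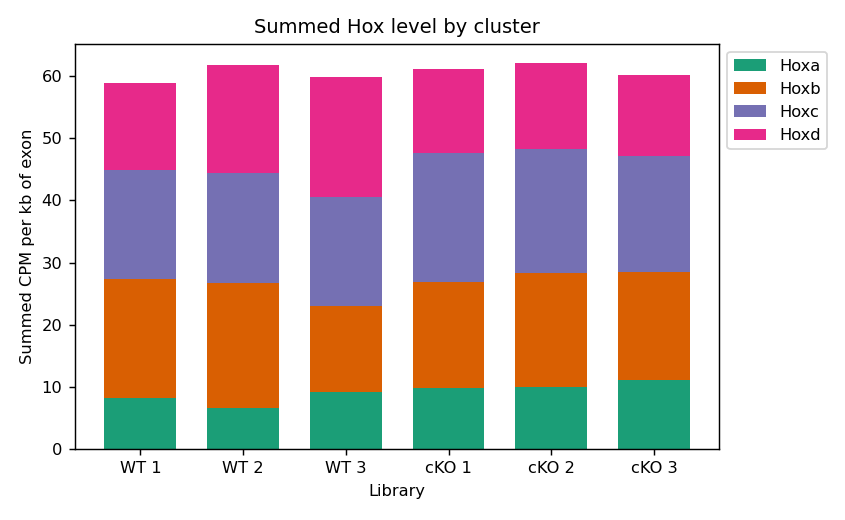
Summed CPM per kb of exon (vertical axis) of the Hox genes in each of the 6 libraries, stacked by cluster. The full bars lie between 58.9 and 62.1, while the Hoxd part is 13 to 13.8 in cKO and 13.9 to 19.2 in WT.

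Of the 29 tested Hox genes, 1 was called lower in cKO (Hoxd8) and 0 higher (edgeR quasi-likelihood test, Benjamini-Hochberg adjusted p under 0.05 over 14789 genes). Of all tested genes 6.17% were called lower and 4.77% higher, against Hox shares of 3.45% and 0. Among 29 genes these shares rest on 1 gene and on 0 genes. Hox genes also had a median standard error of 0.27, against 0.14 for all tested genes, so no lack of calls is read from them. With scaling by total counts alone, 606 of all genes were called lower and 1273 higher, against 912 and 706 here. DESeq2 and limma-voom also called 0 Hox genes higher. At an unadjusted edgeR p under 0.05, 4 were higher (Hoxa4, Hoxa9, Hoxc9 and Hoxc10), which is 13.8% against 12.1% of all tested genes, and 1 was lower, which is 3.45% against 12.5%. The median log2 fold change, cKO over WT, was 0.21 for the Hox genes and 0.02 for all tested genes, and 16 of the 29 lay above 0 (55.2%, against 53.7% of all). The Hox median moved to 0.09 without WT 2, 0.10 without cKO 2 and 0.03 among the Hox genes with 50 counts in 3 libraries.

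**Figure D3:**
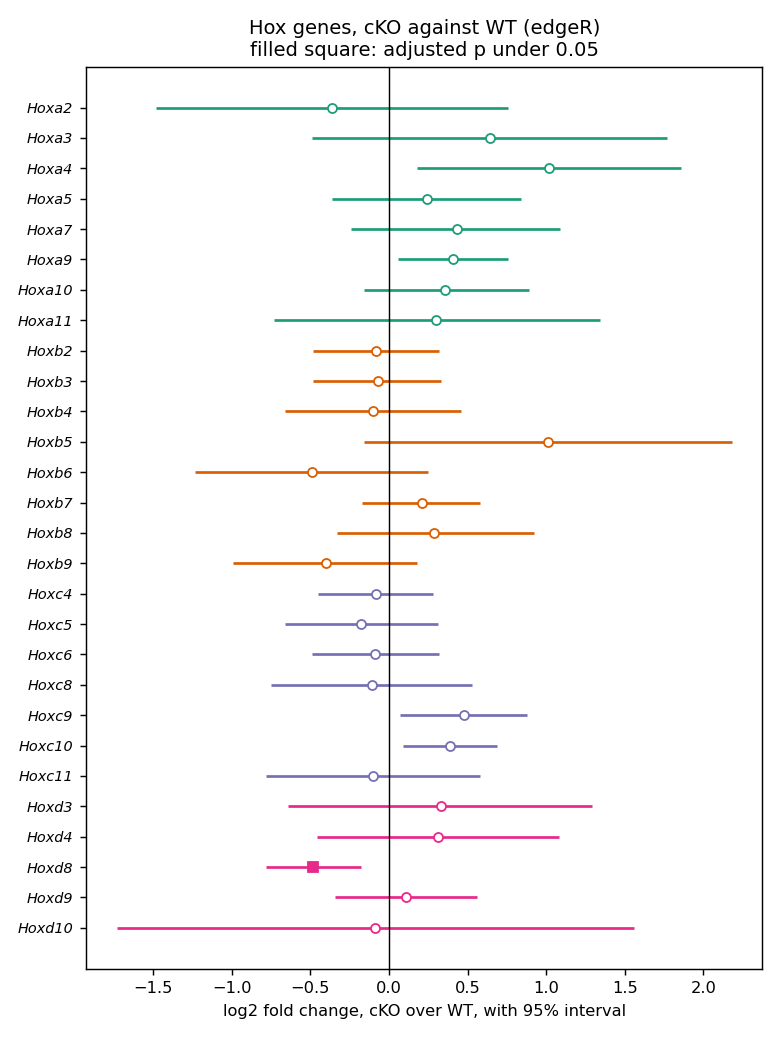
Log2 fold change, cKO over WT, of tested Hox genes with 95% intervals from the edgeR fit (horizontal axis), coloured by cluster; a filled square marks the gene called at an adjusted p under 0.05. Hoxd8 at -0.48 is the filled square, and the widest interval is that of Hoxd10, from -1.73 to 1.56.

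Hoxd8 (chromosome 2, 74704615 to 74707933) had 29.6, 38.4 and 41.6 CPM in WT 1, 2 and 3, against 26.9, 26.1 and 25.3 CPM in cKO 1, 2 and 3. The groups did not overlap, but WT 1 was nearer to the cKO libraries than to WT 3. Its log2 fold change was -0.48 ± 0.13 (SE, 95% interval -0.78 to -0.18, n = 3 per group), a 1.40-fold drop with an edgeR adjusted p of 0.0496. The call did not hold without any one of cKO 1, cKO 2, cKO 3, WT 2 or WT 3 (edgeR adjusted p = 0.0671 to 0.169) and held without WT 1 (edgeR adjusted p = 0.0133). It was also lost by limma-voom (adjusted p = 0.0691) and with total counts (edgeR adjusted p = 0.0969), while DESeq2 called it (adjusted p = 0.0125). Over all 15 alternatives the adjusted p ran from 0.0125 to 0.854 and the log2 fold change from -0.65 to -0.28. In share of the summed Hox level, Hoxd8 was at 15.3% to 16.0% in cKO and 18.3% to 25.4% in WT. Its neighbour Hoxd9, at 6.12, 6.35 and 5.40 CPM in cKO and 4.52, 5.43 and 6.63 CPM in WT, overlapped between the groups (log2 0.11, 95% interval -0.34 to 0.56).

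Hoxc10, Hoxa9 and Hoxc9 were at higher values in each cKO library than in any WT library, without a call, while Hoxc11 overlapped between the groups (log2 -0.10). Hoxc10 was at 16.2, 16.1 and 15.9 CPM in cKO and 11.7, 11 and 14.1 CPM in WT, so the groups did not overlap. Its log2 fold change was 0.39 ± 0.13 (SE, n = 3 per group; edgeR adjusted p = 0.104). A call appeared without WT 3 (edgeR adjusted p = 0.0355) and with total counts (edgeR adjusted p = 0.0307), and the range over alternatives was 0.0307 to 0.918. Hoxa9, a gene of the trunk and of blood precursors, was at 12.2, 11.8 and 10.5 CPM in cKO and 7.51, 8.50 and 9.93 CPM in WT (log2 0.41 ± 0.16, edgeR adjusted p = 0.138), and total counts gave a call (0.0452, range over alternatives 0.0452 to 0.797). Hoxc9 was at 6.85, 7.32 and 5.97 CPM in cKO and 5.37, 4.65 and 4.41 CPM in WT (log2 0.48 ± 0.18, edgeR adjusted p = 0.133). Groups 9 to 13 together made up 39.3% or more of the Hox sum in each cKO library and 36.3% or less in each WT library, and groups 4 to 8 made up at most 53.0% in cKO and at least 55.4% in WT. Neither pair of ranges overlaps, and no test was made of these sums. Both are shares of the summed Hox level, and groups 4 to 8 include Hoxd8. Hoxd8 alone held 15.3% to 16.0% of that level in cKO and 18.3% to 25.4% in WT. Its drop therefore lowers the share of groups 4 to 8 and raises that of groups 9 to 13. Whether groups 4 to 8 differ apart from Hoxd8 was not tested. In CPM per kb, groups 9 to 13 were at 23.7 or more in each cKO library and 21.7 or less in each WT library. Groups 4 to 8, with Hoxd8 among them, were at 31.9 to 32.2 CPM per kb in cKO and 32.6 to 36.9 in WT.

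Hoxa4 had the largest log2 fold change of the tested Hox genes, at 1.18, 1.28 and 2.20 CPM in cKO and 0.887, 0.675 and 0.731 CPM in WT (log2 1.02 ± 0.37, edgeR adjusted p = 0.124). Its counts were low, 27 to 70 in a library. Hoxb5 was next (log2 1.01 ± 0.52, edgeR adjusted p = 0.274), but its cKO value rests on cKO 1, with 3.04 CPM against 1.01 and 1.16 CPM in cKO 2 and 3. Without cKO 1, Hoxb5 was at a log2 fold change of 0.32. In all, 5 tested Hox genes lay above every WT library in every cKO library (Hoxa4, Hoxa5, Hoxa9, Hoxc9 and Hoxc10), which is 17.2% against 15.3% of all tested genes. Below every WT library was 1, Hoxd8, or 3.45% against 15.8%.

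The other leading genes overlapped between the groups. Hoxa10 was at 13.2, 10.4 and 14.7 CPM in cKO and 9.76, 7.03 and 13 CPM in WT (log2 95% interval -0.16 to 0.89). Hoxb7 was at 11.2, 10.2 and 12.1 CPM in cKO and 10.3, 10.9 and 7.81 CPM in WT (interval -0.17 to 0.58). Hoxb9 was at 7.33, 8.76 and 6.72 CPM in cKO and 11.4, 12.6 and 6.17 CPM in WT, where WT 3 alone lay below the cKO libraries. Without WT 3, Hoxb9 was called lower (log2 -0.68 ± 0.16, edgeR adjusted p = 0.0254, range over alternatives 0.0254 to 0.985). Hoxc4 (interval -0.45 to 0.28), Hoxc6 (-0.49 to 0.32) and Hoxb2 (-0.48 to 0.32) had intervals that include 0. Low genes had wider intervals, -1.48 to 0.76 for Hoxa2 and -0.73 to 1.34 for Hoxa11. Standard errors over the 29 genes ran from 0.13 to 0.73 with a median of 0.27, against a median of 0.14 over all tested genes.

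**Figure D4:**
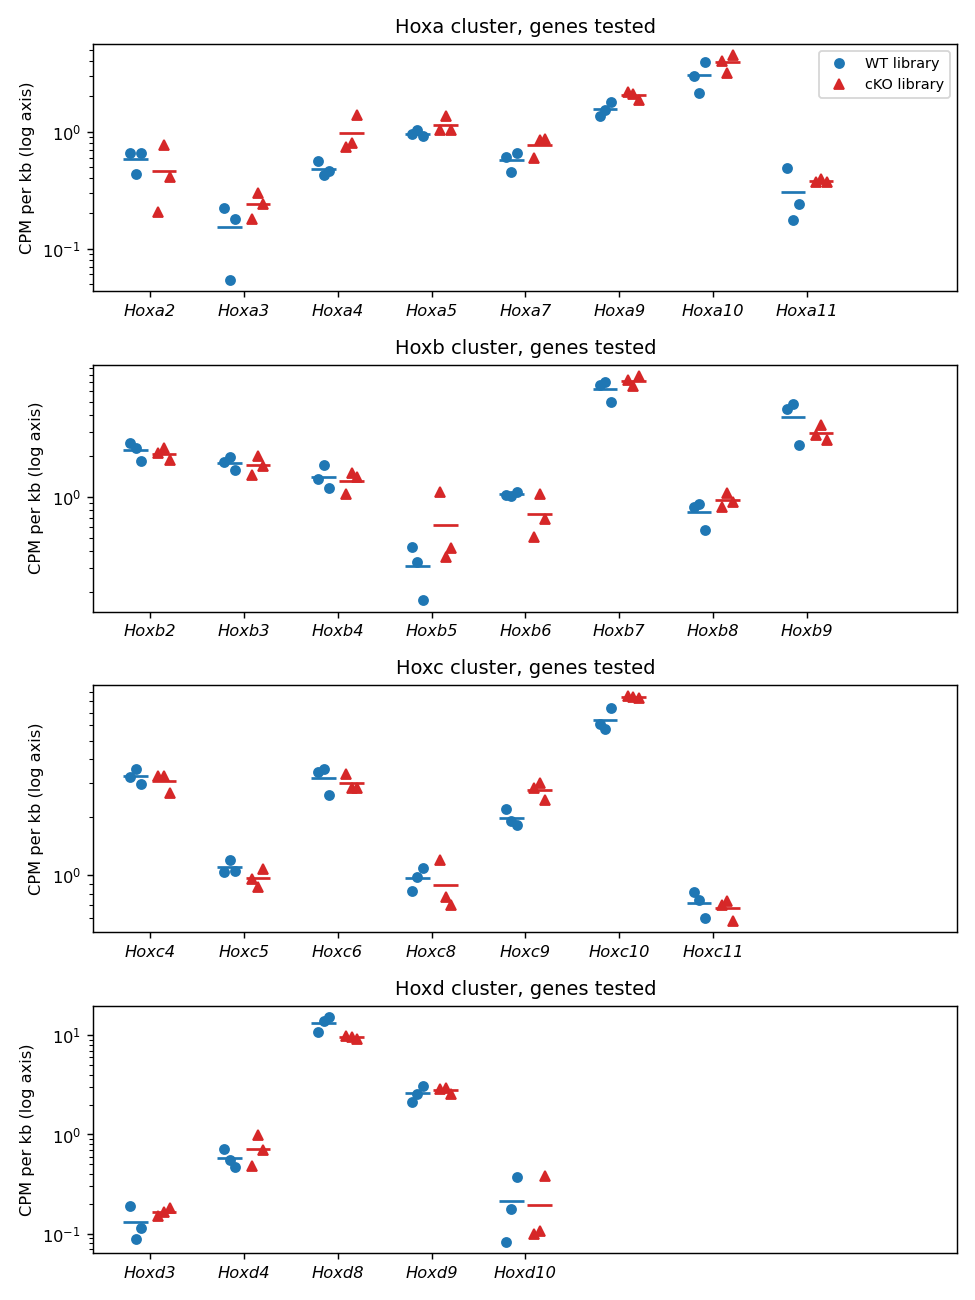
CPM per kb of exon (log axis) of tested Hox genes in every library, WT as blue circles and cKO as red triangles, with short lines at the group means; 1 panel per cluster. Hoxd8 has all cKO points (9.21 to 9.81) below all WT points (10.8 to 15.2), and Hoxc10 has the reverse, 8.31 to 8.50 in cKO and 5.78 to 7.37 in WT.

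By cluster, the median log2 fold change was 0.36 over 9 tested Hoxa genes, -0.08 over 8 Hoxb genes, -0.09 over 7 Hoxc genes and 0.11 over 5 Hoxd genes. With total counts, Hoxb2, Hoxb3, Hoxb4, Hoxc4, Hoxc6, Hoxc8 and Hoxc11 turn from below to just above 0, so no direction is read from the Hoxb and Hoxc medians. That scaling moved the median of all genes by 0.12 on the log2 scale. Relative to the median of all genes, Hoxd8 was at -0.51 here and -0.50 with total counts, and Hoxc10 at 0.37 in both. The Hoxa sum was 9.76 to 11.1 CPM per kb in cKO and 6.57 to 9.11 in WT, and did not overlap. Whether clusters differ in their response was not tested.

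Markers of tissues in and around the nerve differed between the groups, and their part in the Hox values was not tested. Of all tested genes, 4.77% were called higher and 6.17% lower. Skeletal muscle markers rose in 17 of 18 genes, from 520.2 to 1983 CPM summed in WT to 5240 to 10900 CPM in cKO, and 3 of 4 muscle precursor markers rose (1.52 to 6.23 CPM in WT, 22.7 to 43.2 CPM in cKO). Cartilage and bone markers had 2 of 5 tested genes higher and summed to 39.8 to 52.2 CPM in WT and 157.1 to 166.9 CPM in cKO. Most of that sum was Col2a1 alone, at 37.8 to 48.7 CPM in WT and 149.3 to 161.4 CPM in cKO. Which cells made it was not tested. Fibroblast markers, of a cell type known for positional Hox expression, had 2 of 9 genes higher, with overlapping sums (22452 to 30306 CPM in WT, 25882 to 27741 CPM in cKO). Perineurial markers had 1 of 6 genes lower and a median log2 fold change of 0.36 over the list, and mural markers 1 of 6 higher, the latter at 209.7 to 363.7 CPM summed in WT and 382.3 to 426.5 CPM in cKO. No call was made by edgeR, DESeq2 or limma-voom among 7 endothelial, 6 adipocyte, 6 macrophage, 2 keratinocyte, 3 neuron and 3 erythroid markers tested. At an unadjusted edgeR p under 0.05 there were 2 endothelial and 2 macrophage markers and 0 of the others. Lymphocyte markers had 2 of 4 tested genes higher, from at most 2.95 CPM summed in WT to at least 7.85 CPM in cKO. No marker was at 0 in all libraries except the globin gene Hbb-bt. With the muscle level as a covariate, Hoxd8 was at -0.28 ± 0.29 (edgeR adjusted p = 0.854, the upper end of the range over alternatives), Hoxc10 at 0.19 ± 0.29 and Hoxa9 at 0.45 ± 0.35, and of all genes 5 were called higher and 41 lower. The muscle level (mean log2 CPM) was 3.54 to 5.50 in WT and 6.73 to 7.87 in cKO, without overlap. Muscle and group therefore cannot be told apart in that fit.

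Hox proteins bind DNA with partners of the TALE class. Of 9 such genes 2 were called higher and 0 lower, against 4.77% and 6.17% of all tested genes. Meis3 was at 18.0, 18.2 and 19.7 CPM in cKO and 13.7, 13.1 and 13.3 CPM in WT (log2 0.48 ± 0.11, edgeR adjusted p = 0.0253). Meis1, a partner of posterior Hox proteins in leukaemia, was at 9.95, 11.1 and 11.2 CPM in cKO and 7.10, 7.15 and 7.79 CPM in WT (log2 0.55 ± 0.14, edgeR adjusted p = 0.0379). The groups did not overlap for either gene. The Meis3 call was lost without cKO 2, cKO 3, WT 1 or WT 2, and among the left-out libraries that of Meis1 held only without WT 3. Both calls were also lost with the replicate block and with the muscle covariate, and that of Meis1 with no filter on low counts.

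Chromatin regulators hold Hox genes silent or active. Beside the counts given here, 4.77% of all tested genes were called higher and 6.17% lower. Of 23 Polycomb genes, which encode the repressive complexes, 0 passed in edgeR, in DESeq2 or in limma-voom. At an unadjusted edgeR p under 0.05 the count was also 0, where 12.1% of all tested genes were higher and 12.5% lower. The list's median log2 fold change was 0.01. The smallest p-values there were those of Jarid2 (log2 0.19 ± 0.08) and Rnf2 (log2 -0.15 ± 0.08). Of 10 trithorax genes and H3K27 demethylases, Psip1, which helps tether the MLL complex to chromatin, fell from 139.9 to 153.9 CPM in WT to 119.0 to 121.3 CPM in cKO (log2 -0.29 ± 0.08, edgeR adjusted p = 0.0460). That call was lost with 11 of 15 alternatives, every left-out library but WT 3 among them.

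Retinoic acid switches on anterior Hox genes in the embryo. Of 19 tested genes of that list 2 were called higher and 1 lower, against 4.77% and 6.17% of all tested genes. Crabp1, a protein that binds retinoic acid in the cytoplasm, was at 5.43, 4.52 and 4.93 CPM in cKO and 10.4, 10.5 and 9.25 CPM in WT (log2 -1.02 ± 0.16, edgeR adjusted p = 0.00476). Rara, a retinoic acid receptor, was at 51.4, 52.6 and 48.1 CPM in cKO and 37.3, 36.1 and 32.8 CPM in WT (log2 0.52 ± 0.09, edgeR adjusted p = 0.00808). Both calls held in all 6 fits without 1 library and were lost with the muscle covariate (edgeR adjusted p = 0.539 for Crabp1 and 0.533 for Rara). Stra6, which carries vitamin A into cells, was called higher (log2 0.74 ± 0.17, edgeR adjusted p = 0.0265), and among the left-out libraries the call held only without WT 3. It was also lost with the replicate block and with the muscle covariate.

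Among genes of limb identity, Pitx1, which specifies the hind limb, was at 1.33 to 3.35 CPM in WT and 2.29 to 3.29 CPM in cKO, and the forelimb gene Tbx5 had 0 to 4 counts in a library. Tbx4, the hind limb counterpart of Tbx5, was at 0.303, 0.175 and 0.479 CPM in WT and 1.30, 0.701 and 0.848 CPM in cKO (log2 1.57 ± 0.49, edgeR adjusted p = 0.0787). Of the 15 tested genes of this list, 1 (Tbx2) was called higher and 0 lower, against 4.77% and 6.17% of all tested genes. Tbx2, a repressor of the T-box family, was at 163.6, 165.2 and 156.8 CPM in cKO and 98.8, 100.8 and 67.1 CPM in WT (log2 0.86 ± 0.15, edgeR adjusted p = 0.00702). That call held in all 6 fits without 1 library and was lost with the muscle covariate (edgeR adjusted p = 0.249).

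Other transcripts of the Hox clusters were sparse. Hotair, a long RNA made from the Hoxc cluster between Hoxc11 and Hoxc12, was at 1.39, 1.03 and 2.39 CPM in WT and 2.80, 1.01 and 0.942 CPM in cKO, and the groups overlap. Hottip, Evx1, Evx2 and the microRNA hairpins Mir10a, Mir10b, Mir196a-1, Mir196a-2, Mir196b and Mir615 had 0 counts in all libraries. The hairpins are annotated with only 68 to 110 bases, and 0% of those of Mir196b belong to no other gene. Since the counting mode is not given, no absence of these microRNAs is read from their 0 counts. Of 12 tested transcripts within or beside the clusters, 1 was called higher and 0 lower, against 4.77% and 6.17% of all tested genes. The transcript called was Skap1, an adaptor of T cells that flanks Hoxb, at 2 counts over the 3 WT libraries and 0.302 to 0.857 CPM in cKO. Lnp, which flanks Hoxd, did not pass (log2 -0.29 ± 0.09, edgeR adjusted p = 0.0893).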

How the data were processed

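RNA-seq of mouse sciatic nerve, with 3 cKO and 3 WT libraries, was analysed from the authors' deposited raw counts per gene symbol. Per the submitters' processing notes, TopHat2 2.0.13 and HTSeq were used with mm10; annotation, strand setting and counting mode: not given in the sources used here. Lines that name no gene (reads without a feature, 12.07% to 14.26% of a library, and ambiguous reads, 1.635% to 2.818%) were left out of library sizes.

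Counts were filtered with filterByExpr (minimum count 10), scaled by TMM and tested with edgeR 4.0.16 (R 4.3.3) by the quasi-likelihood test, with Benjamini-Hochberg adjustment over 14789 genes and a threshold of 0.05. Standard errors were taken as the size of the log2 fold change over the root of F, and 95% intervals use the fit's degrees of freedom, unadjusted. Levels between genes are CPM per kb of merged GENCODE M21 exons (GRCm38). Alternatives were other scalings and filters, DESeq2 1.42.0, limma-voom (limma 3.58.1), a replicate block, the mean level of 18 skeletal muscle markers as a covariate, and each library left out. The code was tested on simulated data.

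Every Hox gene could be named, with library values for those called and the 3 highest in WT of each cluster; other Hox genes with library values, and Hotair with the transcripts at 0, were picked after their values were seen. Of each list of related genes up to 4 were named by p, and Tbx4, Pitx1 and Tbx5 always. Members and lists were chosen with earlier results of these data known. P-values set the difference between the groups against the spread between these samples. Limits on counts of 0 cover counting error only, while the intervals from the fit include the spread between libraries. Some single-gene values are not reported here.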

Additional observations from a re-analysis of the deposited data

How the results depend on the processing

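For the count of Hox genes called higher (0), scaling by total counts gave 2, and leaving out 1 library gave 0 to 1. For the count called lower (1), upper-quartile factors, total counts, limma-voom, a minimum of 50 counts in 3 libraries, the replicate block and the muscle covariate gave 0, and leaving out 1 library gave 0 to 1. The median Hox log2 fold change (0.21) was 0.33 with total counts, 0.03 with 50 counts in 3 libraries, 0.10 with the muscle covariate and 0.09 to 0.20 without 1 library. Total counts put 8 Hox genes above WT in every cKO library (5 in the report), against 6 with upper-quartile factors, 6 with no filter and 4 with 50 counts in 3 libraries. The WT sums per kb were 10.4 for Hoxa and 20.4 for Hoxc by the longest transcript, and 18.4 (unshared exon bases) and 16.9 (total counts) for Hoxc. After group means were removed, a cKO and a WT library of the same replicate number had correlations of -0.187, -0.121 and 0.0652. Libraries of different numbers had correlations of -0.088 to 0.199. Such values from 3 libraries per group cannot show whether the replicate numbers pair the samples. The replicate block moved the calls over all genes from 706 higher and 912 lower to 461 and 643. Log2 fold changes that changed sign with the muscle covariate were those of Hoxa3 (-1.53), Hoxa7 (-0.31), Hoxa10 (-0.11), Hoxa11 (-0.89), Hoxb4 (0.13), Hoxc4 (0.11), Hoxc5 (0.10), Hoxc6 (0.23), Hoxc8 (0.29), Hoxd3 (-0.60), Hoxd4 (-0.38) and Pitx1 (-0.60). With total counts they were those of Hoxb2 (0.04), Hoxb3 (0.05), Hoxb4 (0.02), Hoxc4 (0.04), Hoxc6 (0.03), Hoxc8 (0.02), Hoxc11 (0.02) and Hoxd10 (0.06). Without 1 library, signs changed within -0.20 to 0.03 for Hoxb3, -0.25 to 0.06 for Hoxb4, -0.38 to 0.04 for Hoxc8, -0.05 to 0.24 for Hoxd9, -1.02 to 0.57 for Hoxd10 and -0.12 to 0.47 for Pitx1. None of these genes was called with the settings used in the report, and the cause was not tested. The muscle level did not overlap between the groups, so muscle and group cannot be told apart in the covariate fit. Hoxd10, with 5 to 27 counts in a library, had the widest interval.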
